A study of Arabidopsis thaliana with 48 samples.

Results

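The mRNA response of Arabidopsis thaliana seedlings of a bHLH35 mutant to 33 °C was measured gene by gene, as the difference between 3 heat libraries (HS) and 3 libraries of untreated mutant seedlings (Control). Genes were kept when at least 3 of these 6 libraries reached 1 FPKM (fragments counted relative to transcript length and library size), which left 18501 of the 32824 genes listed. Of these, 16438 reached 1 FPKM in all 6 libraries. The gene that just entered was AT5G58680, whose value in the library that decided was 1.00037 FPKM, and AT4G02750 just missed, with 0.999147 FPKM. The labels describe the seedlings as mutants of the bHLH35 gene, which encodes a basic helix-loop-helix transcription factor, and do not name the allele or the number of lines. HS seedlings were 7 days old and were held at 33 °C for 1.5 h under 150 µE of light. A second treated group of the same mutant, high light (HL), received 700 µE at 21 °C for 1.5 h, and Control seedlings stayed at 21 °C and 150 µE. The wild type Col-0 was treated in the same way, and its HS and Control groups serve for comparison. All groups named here grew on medium without added salt, with 3 libraries in each, and were part of a design of 48 libraries. The labels do not say whether the 3 replicates came from separate cultures, so every p-value below measures only a spread between libraries. Permutation tests used the libraries compared. The main limma tests and SEs within a genotype drew the spread from all 24 libraries of that genotype, salt-grown and combined-stress groups included. The main test of the difference between genotypes drew it from all 48 libraries.

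Heat unfolds proteins. Plants answer through heat shock factors, transcription factors that bind repeated GAA units (heat shock elements) in front of their target genes and switch on chaperones. Small heat shock proteins hold unfolded proteins in solution, HSP70 and HSP90 refold or mature them, HSP101 pulls aggregates apart, and chaperonins fold proteins inside plastids and mitochondria. The endoplasmic reticulum has its own branch, the unfolded protein response, which is run by membrane-bound bZIP factors and the RNA-splicing sensor IRE1.

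The labels were first checked against the bHLH35 gene itself (AT5G57150). Mutant seedlings had 8.57, 8.93 and 12.4 FPKM in HS, against 5.68, 4.90 and 3.28 FPKM in Control. Col-0 seedlings had 75.3, 87.3 and 93.4 FPKM in HS, against 22, 20.9 and 27.7 FPKM in Control. Every mutant library was below every Col-0 library, and within each genotype all HS libraries were above all Control libraries. The log2 change with heat, on the scale of log2(FPKM + 1), was 0.97 in the mutant (SE 0.22, limma adjusted p = 0.00175) and 1.82 in Col-0. AT5G57150 overlaps AT5G57160 on the opposite strand, and whether counting used strand is not stated, so reads of the pair cannot be told apart.

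Sequencing depth, estimated from the spacing of low FPKM values, was 21400000 to 27500000 fragments per library, so that 3 fragments correspond to 0.109 to 0.140 FPKM for a transcript of 1 kb. Between 17863 and 18579 genes reached 1 FPKM. HS replicate 1 stood apart from the other HS libraries. Its log2 values had a Pearson correlation across genes of 0.950 and 0.952 with HS replicates 2 and 3, which had 0.976 with each other, and 434 genes lay at least 2-fold above and 920 at least 2-fold below the mean of those other libraries. Counts of genes are therefore given with and without it. Shoot and root transcripts were both present. Among 14 root markers, 9 entered the test, and the root tip regulators PLT1, PLT2 and SMB stayed under 1 FPKM in all 6 libraries. The summed level of the root markers was 1222 ± 278 FPKM in HS and 1451 ± 114 FPKM in Control (SD, n = 3 each; exact permutation test, two-sided p = 0.4, smallest possible 0.1). The light harvesting and Rubisco genes, used as markers of green tissue, summed to 104044 ± 5089 FPKM in HS and 121331 ± 7822 FPKM in Control, without overlap (SD, n = 3 each; exact permutation test, two-sided p = 0.1, the smallest possible). The part of a shift between tissues in the results below was not tested.

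Heat shifted many transcripts in both directions. Tests used limma on log2(FPKM + 1), with Benjamini-Hochberg adjustment over all genes tested and a threshold of 0.05. The test called 5990 genes, 32.4% of those tested, with 2899 higher (15.7%) and 3091 lower (16.7%) in HS. Changes of at least 2-fold on that scale were fewer and leaned upward: 1453 genes (7.85%), of which 860 were higher (4.65%) and 593 lower (3.21%). The median log2 change over all genes tested was -0.03. In 5459 of the called genes the 3 HS and 3 Control values did not overlap. Over all 18501 genes tested, called or not, 3412 had every HS value above every Control value and 4086 had every HS value below. Without HS replicate 1 the test called 6267 genes, 3485 higher and 2782 lower, and 5027 of the 5990 genes were called again, all in the same direction. Of the tested genes, 122 reached 1 FPKM in all 3 HS libraries and in no Control library, 104 of them called higher, and 116 in all 3 Control libraries and in no HS library, 82 of them called lower. In whole seedlings, a lower level from fewer cells of a type and one from less RNA per cell cannot be told apart.

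Small heat shock proteins rose most. Of the 16 genes of this list, all tested, 15 rose and none fell, with a median log2 change of 8.56 against -0.03 over all genes and with the same 15 called without HS replicate 1. They took 2.28 ± 0.640% of the summed FPKM in HS and 0.00875 ± 0.00112% in Control (SD, n = 3 each; exact permutation test, two-sided p = 0.1, the smallest possible). HSP17.6C (AT1G53540), a cytosolic class I member and the gene with the largest change by the naming rule, had 5511, 2597 and 2550 FPKM in HS, against 1.31, 0.395 and 1.09 FPKM in Control. All 3 HS values lay far above all Control values, with HS replicate 1 the highest, and the log2 change was 10.78 (SE 1.24, limma adjusted p = 2.21e-06).

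Members aimed at other compartments moved with the cytosolic ones. HSP22.0 (AT4G10250), which resides in the endoplasmic reticulum, had 1624, 1263 and 1579 FPKM in HS, against 0, 0.321 and 0 FPKM in Control. The plastid member HSP21 (AT4G27670) had 939, 545 and 671 FPKM in HS, against 0, 0 and 0.265 FPKM in Control. The mitochondrial member HSP23.6 (AT4G25200) had 972, 593 and 659 FPKM in HS, against 0.471, 1.26 and 1.35 FPKM in Control. In none of the 3 genes did the groups overlap, and the Control values lay below or near the pseudocount of 1, so that the log2 changes of 10.40, 9.34 and 8.51 depend on it. With a pseudocount of 0.1 the median of the list was 9.34. Without HSP26.5, which is described next, the median was 8.60. HSP26.5 (AT1G52560) had 189, 88.8 and 81.9 FPKM in HS and was listed at 0 in all 3 Control libraries. The peroxisomal HSP15.7 (AT5G37670) reached 113, 68.0 and 60.8 FPKM in HS, against 0.738, 0.626 and 0.341 FPKM in Control. HSP15.4 (AT4G21870) was the member without a call, with 26, 43.7 and 44.5 FPKM in HS, against 34.1, 43.6 and 41.1 FPKM in Control, where the groups overlapped (log2 change -0.09, limma adjusted p = 0.785). Class I genes are similar in sequence, so how fragments were split between them is uncertain. HSP17.4A (AT3G46230) carries the long non-coding RNA AT3G07365 on its other strand, and the 5282, 2955 and 2859 FPKM of that RNA in HS, against 1.91, 10.2 and 1.01 FPKM in Control, cannot be told apart from reads of the gene.

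**Figure D1:**
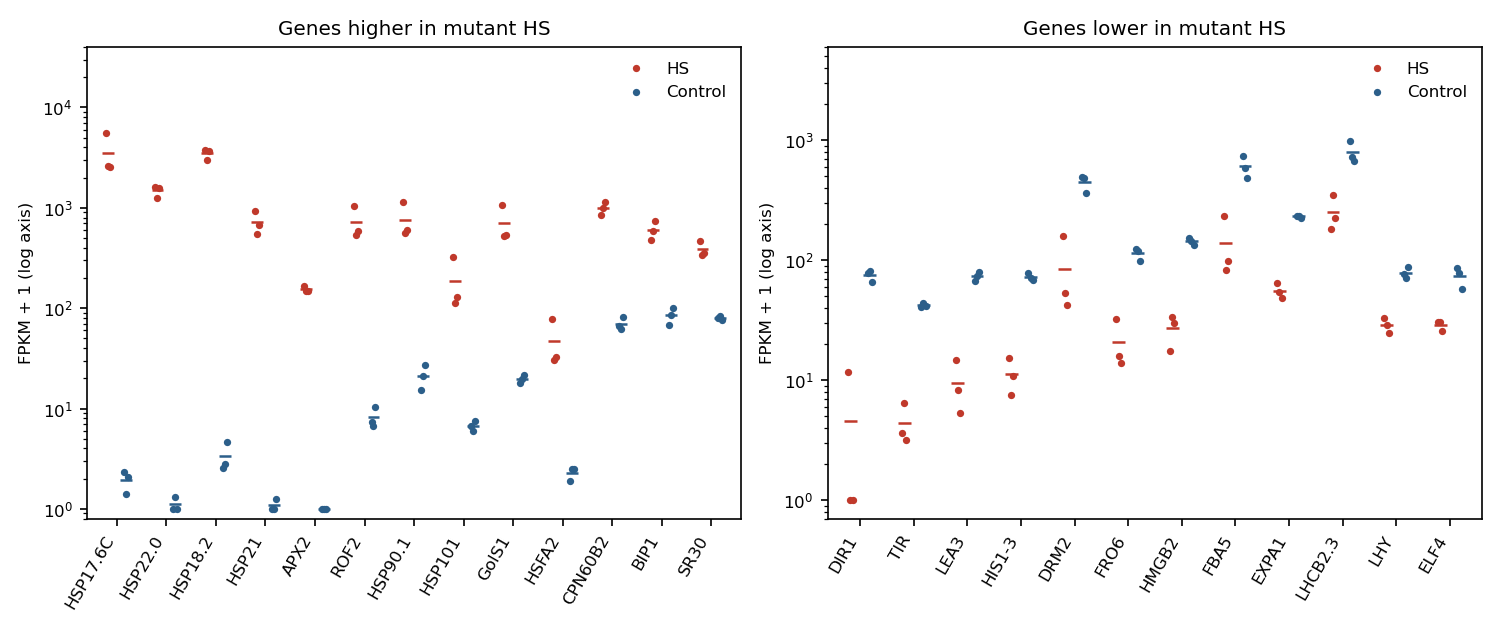
Level of 25 genes in each library, as FPKM + 1 on a log axis, with 13 genes that rose in the left panel and 12 that fell in the right one. Points are libraries, bars are group means, and HS (red) stands left of Control (blue) for each gene; HSP17.6C reaches 5511 FPKM in HS, and ELF4, at the right, has 24.5 to 29.6 FPKM in HS and 56.4 to 84.8 FPKM in Control.

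Stretches with the heat shock element are shown for genes with large and small changes, because this motif is the known contact of heat shock factors. The search used GAANNTTCNNGAA, made of 3 alternating units, on either strand in the 500 bases before the first annotated start codon (RefSeq, TAIR10.1). Each stretch is written 5′ to 3′ on the strand of its gene, and capitals mark the fixed letters of the motif or of its reverse complement.
HSP17.6C (chr1:19980238-19980266, plus strand): caacaccaGAAacTTCttGAAagcacctg
HSP18.2 (chr5:24062388-24062416, plus strand): caacaaacGAAacTTCctGAAatgccaag
HSP22.0 (chr4:6370379-6370407, plus strand): aaagatatTTCaaGAAacTTCttcattct
HSP90.1 (chr5:21352254-21352282, plus strand): aacgaaaaGAActTTCtgGAAttcgtttg
HSP70-4 (chr3:3993846-3993874, minus strand): ttactcgtGAAcgTTCtcGAAagctcttt
HSFA2 (chr2:11135528-11135556, plus strand): ttagtaacGAAgtTTCtgGAAcattgtct
HOP3 (chr4:7341319-7341347, minus strand): aaaaattcGAAatTTCgaGAActctcttg
GolS1 (chr2:19370558-19370586, minus strand): gtcccactTTCcaGAActTTCacggtttc
SR45a (chr1:2260131-2260159, minus strand): gtccgactTTCccGAAgcTTCtttctaaa
HSFA7A (chr3:19264941-19264969, plus strand): ttacgaagTTCcaGAAgtTTCgactattc
The distance from the start codon to the first base of the motif was 264 bases in HSP17.6C, 236 in HSP18.2, 150 in HSP22.0, 295 in HSP90.1, 177 in HSP70-4, 320 in HSFA2, 100 in HOP3, 206 in GolS1, 50 in SR45a and 345 in HSFA7A. The motifs of HSP18.2, HSP22.0, HSP70-4, HOP3 and SR45a reached into the annotated gene, ahead of the start codon. The first 9 of the genes shown rose in HS. AT2G34080, not shown, held the motif 256 bases before its start codon and fell by 0.91 (limma adjusted p = 0.00126). HSFA7A, with a further match 295 bases before its start codon, had 19.0, 9.19 and 8.09 FPKM in HS, against 18.6, 13.2 and 12.1 FPKM in Control, and was not called (limma adjusted p = 0.484).

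Over all tested genes with such a window, 262 of 17950 (1.46%) held the 3-unit motif. It was present in 13 of 59 windows (22%) of genes that rose by at least 3 on the log2 scale, in 47 of 735 (6.40%) of those that rose by 1 to 3, in 47 of 2031 (2.31%) of those that rose by less, in 25 of 3025 (0.826%) of genes that fell and in 130 of 12100 (1.07%) of genes without a call. The shorter TTCNNGAA, which lies inside the 3-unit motif, was present in 34 of the 59 windows of the first class (57.6%) and in 17.96% of all windows. Of the lists, small heat shock proteins held the 3-unit motif in 4 of 16 windows and the shorter one in 13, and HSP70, HSP90 and HSP100 genes in 8 of 22 and 11 of 22. Organelle chaperonins, which all rose, held them in 0 of 8 and 1 of 8 windows. These shares are descriptions of letters in a window that was chosen with the response known, and carry no test.

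**Figure D2:**
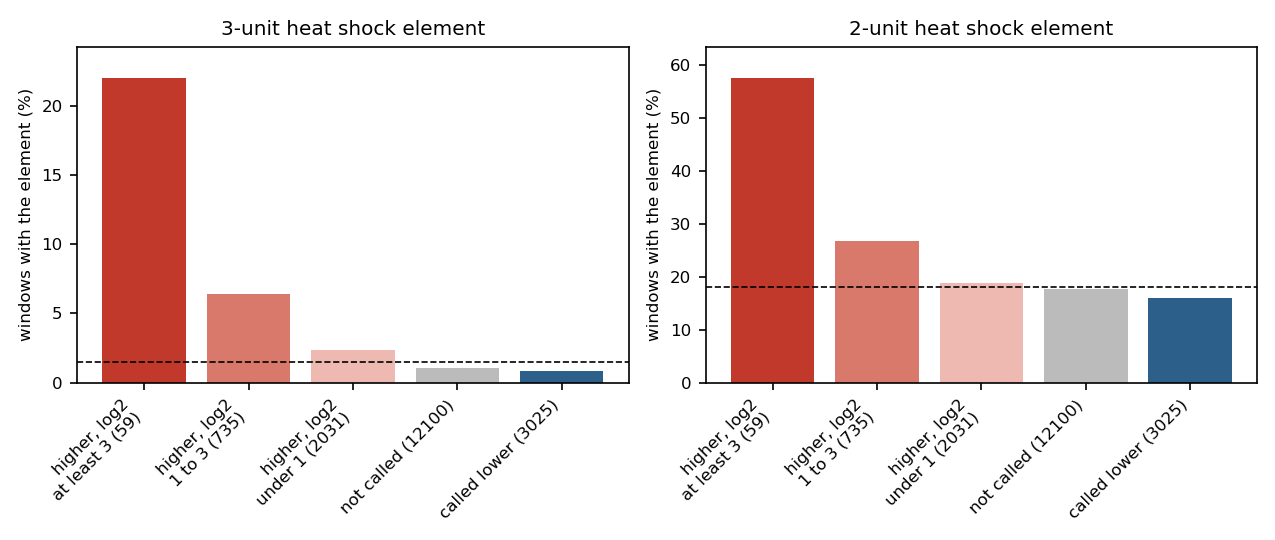
Percent of 500-base windows before the start codon that hold the 3-unit heat shock element (left) or the shorter 2-unit form (right), for genes grouped by their change in HS against Control. The dashed line is the share over all tested genes (1.46% and 17.96%), the number of windows stands in each class label, and the genes that rose most have the highest share in both panels.

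The larger chaperones rose in nearly every compartment. Of 21 tested HSP70, HSP90 and HSP100 genes, 19 rose and none fell (median log2 change 1.96), and without HS replicate 1 all 21 were called higher. HSP101 (AT1G74310), the disaggregase needed for acquired heat tolerance, had 323, 111 and 127 FPKM in HS, against 5.73, 4.93 and 6.45 FPKM in Control. The groups did not overlap and HS replicate 1 was the highest (log2 change 4.64, SE 0.45, limma adjusted p = 3.53e-07). HSP90.1 (AT5G52640), the heat-inducible cytosolic HSP90, had 1129, 555 and 604 FPKM in HS, against 14.4, 20.1 and 26.2 FPKM in Control (log2 change 5.13). Its relatives made at normal temperature moved less: HSP90.2 rose by 1.96 and HSP90.3 by 1.08, and HSP90.4 was not called at 10.4, 16 and 17.4 FPKM in HS, against 11.4, 9.62 and 11.3 FPKM in Control.

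The same gradient was seen among HSP70 genes. HSP70-4 (AT3G12580), a cytosolic form, had 2051, 1230 and 1377 FPKM in HS, against 51.6, 58.5 and 76.8 FPKM in Control, a log2 change of 4.60. HSC70-1 (AT5G02500), the abundant constitutive form, had 2038, 1388 and 1518 FPKM in HS, against 906, 822 and 946 FPKM in Control, a log2 change of 0.87. Neither gene showed overlap between the groups, and their levels in HS were of similar size although their levels in Control differed more than 10-fold. Plastid and mitochondrial members rose as well, with log2 changes of 1.51 for cpHSC70-1, 2.37 for MTHSC70-2, 2.01 for the plastid disaggregase CLPB3 and 2.55 for its mitochondrial counterpart CLPB4. One listed gene, AT1G56410, was listed at 0 in all 6 libraries, and near-identical HSP70 copies leave the split between members uncertain.

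Cochaperones and other genes of heat acclimation followed, with 11 of 15 higher, none lower and a median log2 change of 1.57 (12 and 0 without HS replicate 1). ROF2 (AT5G48570), a peptidyl-prolyl isomerase that acts with HSP90 and HSFA2, had 1039, 534 and 585 FPKM in HS, against 6.28, 5.77 and 9.42 FPKM in Control (log2 change 6.43, SE 0.56, limma adjusted p = 1.2e-07). HSA32 (AT4G21320), which prolongs acquired heat tolerance, had 662, 261 and 289 FPKM in HS, against 8.06, 9.69 and 8.43 FPKM in Control. HOP3, which bridges HSP70 and HSP90, rose by 5.32, the transcriptional coactivator MBF1C by 4.69 and the HSP70 partner FES1A by 3.08. HOP1, a sister of HOP3, rose by only 0.45. The binding protein of heat shock factors, HSBP (AT4G15802), had 40.2, 65.1 and 50.4 FPKM in HS, against 52.9, 52.4 and 56.8 FPKM in Control, and was not called.

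All 8 organelle chaperonin genes rose, with and without HS replicate 1, with a median log2 change of 2.37. CPN60B2 (AT3G13470), a plastid chaperonin subunit, had 847, 995 and 1152 FPKM in HS, against 65.9, 60.8 and 79.8 FPKM in Control, and here HS replicate 1 was the lowest HS library (log2 change 3.84, SE 0.28, limma adjusted p = 3.22e-08). Its sister CPN60B1 (AT1G55490) had 263, 350 and 334 FPKM in HS, against 209, 200 and 208 FPKM in Control, a log2 change of 0.61. CPN60B2 was thus the lower of the pair in Control and the higher in HS in every library. Of the mitochondrial set, HSP60 rose by 2.69 and its cochaperonin CPN10 by 2.45.

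**Figure D3:**
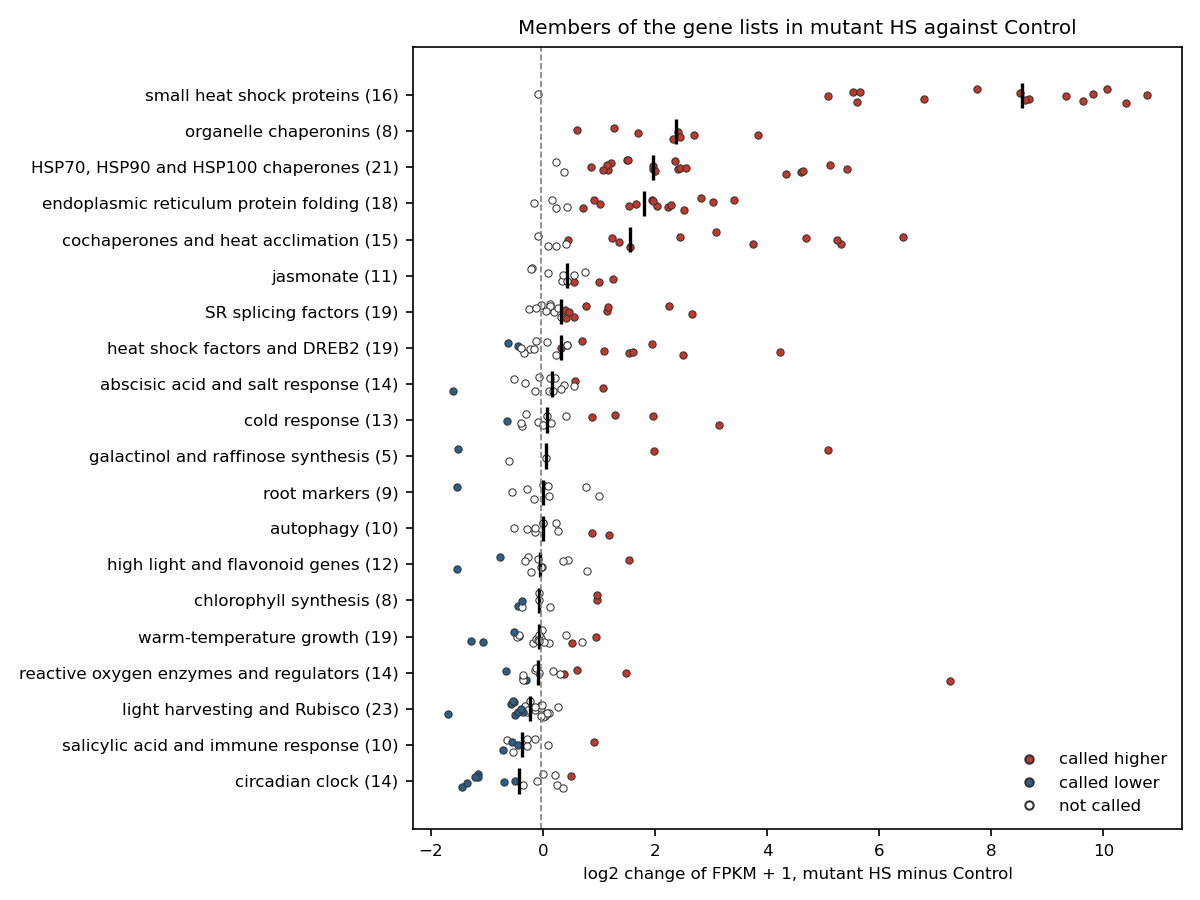
Log2 change, HS over Control in the mutant, of each tested member of 20 gene lists. Points are genes, black ticks are list medians and the dashed line is the median of all tested genes (-0.03); small heat shock proteins have a median of 8.56 and organelle chaperonins of 2.37, and the circadian clock list lies mostly below the line.

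The folding machinery of the endoplasmic reticulum rose as a group: 14 of 18 tested genes were higher and none lower, with a median log2 change of 1.81, and without HS replicate 1 the count was again 14 and 0. BIP1 (AT5G28540), the HSP70 of this compartment, had 474, 582 and 742 FPKM in HS, against 67.6, 84.1 and 100 FPKM in Control (log2 change 2.82, SE 0.22, limma adjusted p = 4.8e-08). Calnexin 1 (AT5G61790), a lectin chaperone for glycoproteins, had 443, 564 and 719 FPKM in HS, against 81.8, 98.2 and 114 FPKM in Control. In both genes every HS library lay above every Control library, and HS replicate 1 was the lowest of the HS libraries. The cochaperone ERDJ3A rose by 3.42, BIP2 by 3.04 and HSP90.7 by 2.24.

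Its listed regulators rose by less than the list median of 1.81 or were not called. The stress sensor bZIP28 (AT3G10800) rose to 37.9, 27.7 and 32.7 FPKM in HS, against 15.2, 16.9 and 14.5 FPKM in Control, a log2 change of 1.02, and bZIP17 rose by 0.72. bZIP60, IRE1A and IRE1B were not called, and neither was the calreticulin CRT3, whose relatives CRT1A and CRT1B rose by 2.05 and 1.95. BIP3 (AT1G09080), the inducible BiP, stayed under the level required for testing, with 0.745, 1.42 and 4.09 FPKM in HS, against 0.518, 0.285 and 0.987 FPKM in Control. Windows of this list held the heat shock element rarely, in 1 of 19 cases, the stress element CCAATNNNNNNNNNNCCACG of this compartment in 0 of 19 (9 of 17950 tested windows held it), and the G-box CACGTG in 10 of 19 (52.6%), against 10.7% of all tested windows. The G-box was about as common in windows of the cold (62.5%), high light and flavonoid (58.3%), abscisic acid (50%) and light harvesting (47.8%) lists.

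Among heat shock factors and DREB2 genes, 8 of 19 tested rose and 2 fell (median log2 change 0.32), and without HS replicate 1 these counts were 6 and 1. HSFA2 (AT2G26150), which prolongs and amplifies the response, had 77.5, 29.3 and 31.8 FPKM in HS, against 0.902, 1.52 and 1.49 FPKM in Control (log2 change 4.22, SE 0.42, limma adjusted p = 4.79e-07). The groups were far apart, with HS replicate 1 more than 2-fold above the other HS libraries. HSFB1, HSFB2A and HSFB2B, repressors of the response, rose by 2.51, 1.62 and 1.94, and HSFA3 by 1.54. HSFB1 (AT4G36990), for example, had 141, 82.2 and 74.7 FPKM in HS, against 15.1, 16.4 and 16.4 FPKM in Control.

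The HSFA1 genes, which encode the primary activators, changed by less than 1 on the log2 scale. HSFA1B (AT5G16820) fell to 6.56, 7.43 and 4.82 FPKM in HS, against 10.9, 9.95 and 9.47 FPKM in Control, without overlap (log2 change -0.62). HSFA1D rose by 0.32 with a limma adjusted p of 0.0354, which became 0.0516 without HS replicate 1. HSFA1A and HSFA1E were not called. DREB2A (AT5G05410), an activator of HSFA3, had 39.6, 15.4 and 16.5 FPKM in HS, against 13, 9.63 and 7.13 FPKM in Control. Its call (log2 change 1.09, limma adjusted p = 0.0206) was lost without HS replicate 1, where the adjusted p was 0.13, and that of HSFA5, which was lower, was lost too, at 0.123.

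Heat-linked metabolism and oxidant removal changed in single genes rather than as groups. Galactinol synthase 1, GolS1 (AT2G47180), which starts the synthesis of raffinose-type sugars, had 1067, 519 and 534 FPKM in HS, against 17.1, 18.7 and 20.5 FPKM in Control (log2 change 5.08, SE 0.60, limma adjusted p = 2.69e-06). RS2 (AT3G57520), listed with the raffinose synthases, fell to 58.1, 55.0 and 57.1 FPKM in HS, against 121, 192 and 190 FPKM in Control. The remaining tested genes of that list of 5 were GolS2, which rose by 1.98, and RS5 and RS6, which were not called. RS6 was called lower without HS replicate 1 (limma adjusted p = 0.0397). Of 14 tested genes for reactive oxygen enzymes and regulators, 4 rose (28.6%) and 2 fell (14.3%), against 15.7% and 16.7% over all genes tested. Without HS replicate 1 the counts were 4 and 3. The cytosolic ascorbate peroxidase APX2 (AT3G09640) had 164, 149 and 147 FPKM in HS and was listed at 0 in all Control libraries. Its constitutive relative APX1 (AT1G07890) had 1812, 1794 and 1863 FPKM in HS, against 554, 669 and 752 FPKM in Control, a log2 change of 1.48. The iron superoxide dismutase FSD1 rose by 0.61 and the copper/zinc enzyme CSD2 fell by 0.66.

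Splicing factors of the SR family, which bind exons and steer alternative splicing, rose in 9 of 19 cases and fell in none (median log2 change 0.33, 11 and 0 without HS replicate 1). SR30 (AT1G09140) had 467, 337 and 352 FPKM in HS, against 78.9, 82.6 and 75.9 FPKM in Control (log2 change 2.25, SE 0.29, limma adjusted p = 8.24e-06). SR45a (AT1G07350), which is SR-like, had 313, 170 and 183 FPKM in HS, against 34.3, 29.3 and 34.8 FPKM in Control. SC35 and SCL33 rose by 1.15 and 1.17, while SR34 and RS41 were not called. SR34B rose by 0.77, and the remaining called members rose by 0.39 to 0.56.

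Outside these lists, large increases named after their values were seen included the plastid protease homologue EGY3 (AT1G17870), with 426, 165 and 161 FPKM in HS, against 3.29, 3.08 and 3.16 FPKM in Control. The vitamin B6 synthesis subunit PDX1.2 (AT3G16050) had 92.7, 54.3 and 57.1 FPKM in HS, against 7.75, 6.20 and 4.90 FPKM in Control. An elongation factor 1-beta gene (AT5G12110) had 302, 274 and 277 FPKM in HS, against 14.6, 12 and 15.6 FPKM in Control, a log2 change of 4.25. None of the 3 showed overlap. The naming rule for the 12 largest increases gave 10 small heat shock proteins, AT3G07365 and the small nucleolar RNA gene AT4G39364, which had 773, 607 and 805 FPKM in HS and was listed at 0 in Control. AT4G39364 is 122 bases long. Its log2 scale SE was 3.29 in the fit to all 24 mutant libraries, which does not describe the spread of the HS and Control values printed here. Without HS replicate 1 its limma adjusted p was 0.0595.

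Among the genes that fell most, DIR1 (AT5G48485), a lipid transfer protein of systemic immune signalling, had 10.6, 0.000153 and 6.7e-06 FPKM in HS, against 77.3, 81.0 and 65.5 FPKM in Control. Such minute values can arise when fragments are shared out between overlapping genes. DIR1 overlaps AT5G48480 on the opposite strand, which had 45.8, 49.3 and 56.5 FPKM in HS, against 25.1, 17.4 and 23.6 FPKM in Control. DIR1 fell by 5.05 on the log2 scale, and reads of the pair cannot be told apart. The rule also named AT5G42825, AT3G08795, AT3G08350 and AT5G17165 (listed at 0 in HS), which overlap other genes too, and the plastid gene ATCG00330.

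The rule kept only genes without overlap between the groups, so separation was a condition for the other decreases it named. TIR (AT1G72930), an immune protein made of a TIR domain, fell to 2.65, 5.44 and 2.15 FPKM in HS, against 39.8, 43.3 and 40.3 FPKM in Control (log2 change -3.33, SE 0.31, limma adjusted p = 1.85e-07). LEA3 (AT1G02820), a late embryogenesis abundant protein, fell to 13.8, 7.35 and 4.33 FPKM in HS, against 66.5, 73.0 and 79.3 FPKM in Control. HIS1-3 (AT2G18050), a stress-responsive linker histone, fell to 14.3, 6.49 and 9.92 FPKM in HS, against 76.6, 69.9 and 67.0 FPKM in Control. DRM2 (AT2G33830), a dormancy-associated gene, fell to 159, 51.8 and 41.6 FPKM in HS, against 495, 488 and 359 FPKM in Control, with HS replicate 1 nearest to Control. AT1G29090 and AT2G27420 completed the list, at log2 changes of -3.45 and -2.69.

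Some abundant transcripts of growth and carbon metabolism, named after their values were seen, fell as well. The expansin EXPA1 (AT1G69530), which loosens cell walls, had 63.3, 53.2 and 47.2 FPKM in HS, against 235, 233 and 225 FPKM in Control (log2 change -2.07, SE 0.15, limma adjusted p = 3.22e-08). The ferric reductase FRO6 (AT5G49730) had 31.2, 15 and 13 FPKM in HS, against 122, 118 and 98.1 FPKM in Control. CP12-2 (AT3G62410), a regulator of the Calvin cycle, had 184, 143 and 86.5 FPKM in HS, against 621, 510 and 490 FPKM in Control. The sucrose phosphate synthase SPS4F fell by 2.23, the aldolase FBA5 by 2.27 and the chromatin protein HMGB2 by 2.46, all without overlap between the groups.

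In the circadian clock, 7 of 14 genes fell and 1 rose, with a median log2 change of -0.42. Without HS replicate 1 there were 9 lower and 1 higher. LHY (AT1G01060), a morning MYB factor, had 32, 28 and 23.5 FPKM in HS, against 75.6, 69.7 and 86.0 FPKM in Control (log2 change -1.44, SE 0.20, limma adjusted p = 1.55e-05). Its partner CCA1 (AT2G46830) was the 1 gene that rose, with 126, 94.9 and 99.7 FPKM in HS, against 71.6, 73.9 and 78.5 FPKM in Control. In both genes the groups were separate, in opposite directions. ELF4, of the evening complex, fell by 1.34, while the other members ELF3 and LUX were not called. PRR5, RVE8 and FKF1 fell by 1.16, 1.16 and 1.2. The evening element AAAATATCT was present in 5 of the 14 windows (35.7%), against 4.06% of all tested windows. Of the genes with it, PRR5 and FKF1 fell, while PRR9, LUX and TOC1 were not called. Its share was higher in the cold list (56.25%), and it was 23.1% in the jasmonate, 22.2% in the chlorophyll synthesis and 20% in the reactive oxygen list.

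Light harvesting and Rubisco genes fell in 8 of 23 cases and rose in none, with a median log2 change of -0.23. Without HS replicate 1 the counts were the same, and they were 6 and 11 lower under other scalings of the libraries. LHCB2.3 (AT3G27690) fell to 182, 349 and 226 FPKM in HS, against 982, 724 and 677 FPKM in Control (log2 change -1.69, SE 0.25, limma adjusted p = 4.31e-05). The other 7 called genes, among them LHCB1.1, LHCB1.3, LHCB2.1 and RBCS1B, fell by 0.35 to 0.57, and near-identical copies make the split within the LHCB1 and RBCS genes uncertain. In chlorophyll synthesis, the protochlorophyllide reductases PORB and PORC both rose by 0.96. PORB (AT4G27440) had 195, 410 and 426 FPKM in HS, against 169, 166 and 163 FPKM in Control. Enzymes upstream of them fell, CHLH by 0.44 and CHLM by 0.36.

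Hormone, cold and growth lists changed in single members, with most of their genes not called. PIF4 (AT2G43010), the factor that drives stem elongation in warmth, had 109, 90.5 and 107 FPKM in HS, against 56.6, 54.3 and 46.6 FPKM in Control, a log2 change of 0.94. Its listed targets YUC8 and the tested SAUR genes were not called, and the expansin EXPA8 fell by 1.27. Of 19 tested genes of warm-temperature growth 2 rose (10.5%) and 3 fell (15.8%). Over all genes tested 15.7% rose and 16.7% fell, so these shares were not above those of all genes. Of 13 tested cold-response genes 4 rose (30.8%, against 15.7% over all genes tested) and 1 fell. The dehydrin ERD10 (AT1G20450) had 76.0, 58.7 and 56.8 FPKM in HS, against 17.5, 15.9 and 13.3 FPKM in Control, and KIN1 rose by 3.15. Without HS replicate 1 these counts were 2 and 2 for warm-temperature growth and 4 and 3 for cold response. Abscisic acid genes numbered 2 higher (14.3%) and 1 lower (7.14%) of 14, both below the shares over all genes. Jasmonate genes numbered 3 higher of 11 (27.3%, against 15.7% over all). Salicylic acid genes numbered 1 higher and 3 lower of 10 (30% lower, against 16.7% over all). Without HS replicate 1 the counts were 1 and 2, 3 and 0, and 1 and 2, and the calls of IAA29, HAI1, JAZ7, JAZ10 and CBP60G were lost. The 1 lower gene of the abscisic acid list was P5CS1 (AT2G39800), a proline synthesis enzyme, with 13.9, 11 and 11.5 FPKM in HS, against 43.7, 36.8 and 35.4 FPKM in Control. Among autophagy genes 2 of 10 rose (20%), ATG8A and ATG8H. Among high light and flavonoid genes 1 of 12 rose (8.33%) and 2 fell (16.7%). Without HS replicate 1 these were 1 and 1, and the call of PAL1 was lost. These shares lay near or below those over all genes. The 1 root marker called, IRT1, was lower, and was not called without HS replicate 1.

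Genes of the organelle genomes moved in opposite directions. Of 41 tested mitochondrial genes 32 were higher and none lower (median log2 change 1.62), and of 50 tested plastid genes 17 were lower and none higher (median -1.03). Without HS replicate 1 these were 28 higher and 14 lower. Mitochondrial genes took 0.107%, 0.0322% and 0.0784% of the summed FPKM in HS, against 0.00852%, 0.0123% and 0.0122% in Control. Plastid genes took 0.0728%, 0.127% and 0.0893% in HS, against 0.154%, 0.594% and 0.256% in Control. In the mutant both shares were free of overlap, and the exact two-sided permutation p was 0.1 for each, the smallest possible. In Col-0 HS against Col-0 Control 32 mitochondrial genes were higher, and 4 of 46 tested plastid genes were lower with a median of -0.24. Plastid genes took 0.0632%, 0.0708% and 0.0781% of the summed FPKM in Col-0 HS, against 0.101%, 0.107% and 0.0705% in Col-0 Control, with overlap. Every mutant Control library thus lay above every Col-0 library in plastid share, while the mutant HS shares were of similar size to those of Col-0 Control. Organelle transcripts mostly lack stable poly(A) tails, and nuclear copies of mitochondrial DNA can share reads. The part of either in these values was not tested.

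HS replicate 1 differed from the other HS libraries in several groups of genes. Small heat shock proteins were higher in it, with medians of 8.93, 8.23 and 8.27 above the Control mean on the log2 scale in HS replicates 1, 2 and 3. They took 3.02% of the summed FPKM there, more than in the other HS libraries. Folding genes of the endoplasmic reticulum were lower in it, with medians of 1.38, 1.92 and 2.19. Genes known to rise when sugar runs low, a list of 16 drawn up after the values were seen, had medians of 0.07, -1.76 and -2.11. With all libraries 6 of these fell and none rose, and without HS replicate 1 14 fell. ASN1 (AT3G47340), asparagine synthetase, showed the split, with 218, 30.1 and 25.9 FPKM in HS, against 131, 171 and 170 FPKM in Control. BT1 (AT5G63160) had 194, 39.3 and 38.4 FPKM in HS, against 276, 276 and 208 FPKM in Control. Genes of aliphatic glucosinolate synthesis, a second such list of 16, had medians of -0.66, 1.2 and 0.56, with 0 called, and 5 higher without HS replicate 1. In each of these lists Col-0 HS replicate 1 lay at the same end of its group. Over the Col-0 Control mean, small heat shock proteins had medians of 9.22, 8.68 and 8.21 in Col-0 HS replicates 1, 2 and 3. The low-sugar list had -0.35, -1.32 and -1.77 there, and the glucosinolate list -0.43, 0.13 and 0.59. Folding genes of the endoplasmic reticulum were lowest in Col-0 HS replicate 1, at 1.39. The cause was not tested.

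**Figure D4:**
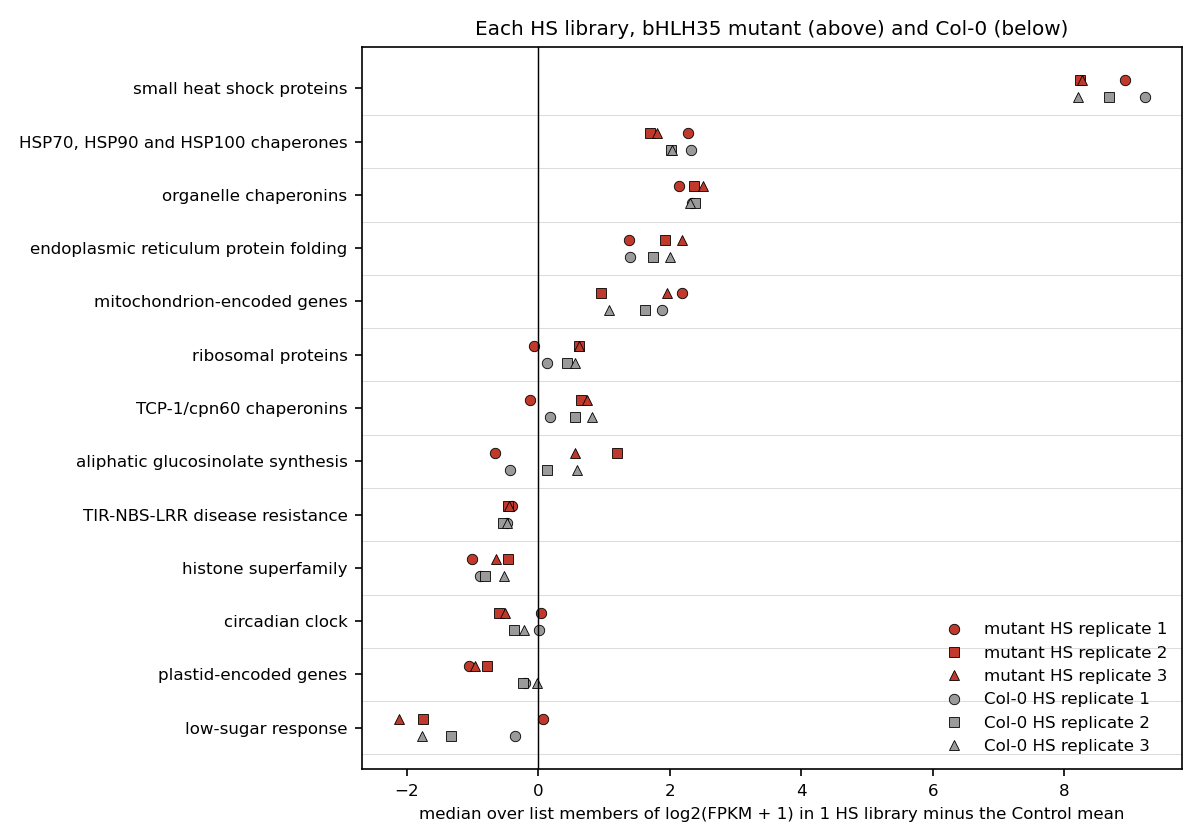
Median log2 level of 13 gene lists in each HS library minus the Control mean of the same genotype, with mutant libraries (red, above) and Col-0 libraries (grey, below) and the marker shape giving the replicate number. Small heat shock proteins lie between 8.21 and 9.22 in all 6 HS libraries, and the low-sugar list runs from 0.07 to -2.11 in the mutant and from -0.35 to -1.77 in Col-0.

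A difference between mutant and wild type was tested as the difference between their HS against Control changes, in 1 limma fit over 48 libraries. Col-0 itself had 6405 of 18826 genes called with heat (34%), with 16.6% higher and 17.4% lower. No gene of 19554 was called for a difference between the genotypes (0%), 550 had an unadjusted p under 0.05, and the smallest adjusted p was 0.667. Leaving out mutant Control replicate 1 gave 2 calls, AT4G39925 (log2 difference 3.09, limma adjusted p = 0.025) and the plastid gene ATCG00040 (-2.73, limma adjusted p = 0.0104). Leaving out mutant Control replicate 2 gave 1, AT3G07705 (-4.95, limma adjusted p = 0.000943). Each was called in that setting only, and ATCG00040 and AT3G07705 were named after their values were seen. An absence of calls does not show that the responses were the same, and its precision differs by gene. For HSP17.6C the mutant change minus that of Col-0 was 0.37 (SE 1.68), for HSP101 -0.06 (SE 0.66), for HSFA2 -0.56 (SE 0.67) and for BIP1 0.14 (SE 0.28).

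Medians of several chaperone and folding lists stood close together in the mutant and Col-0. They were 8.56 and 8.75 for small heat shock proteins, 1.96 and 2.13 for HSP70, HSP90 and HSP100, 2.37 and 2.34 for organelle chaperonins and 1.81 and 1.72 for folding in the endoplasmic reticulum. Some other lists lay further apart, with -1.03 and -0.24 for plastid genes, 0.31 and 0.03 for aliphatic glucosinolate synthesis and 0.01 and 0.30 for root markers. The 3 genes with the smallest p for a difference had 0 to 17.6 FPKM. AT4G39925 had 3.11, 1.29 and 2.26 FPKM in mutant HS, against 1.96, 0 and 0.301 FPKM in mutant Control, and 0.279, 0.314 and 0 FPKM in Col-0 HS, against 1.4, 2.76 and 4.61 FPKM in Col-0 Control. AT2G34080, annotated as a cysteine proteinase, had 2.57, 1.23 and 1.98 FPKM in mutant HS, against 3.18, 5.40 and 4.85 FPKM in mutant Control, and 5.04, 3.70 and 2.25 FPKM in Col-0 HS, against 1.57, 3.24 and 2.99 FPKM in Col-0 Control. The non-coding AT1G08033 had 17.6, 3.94 and 8.86 FPKM in mutant HS and was listed at 0 in mutant Control and in all 6 Col-0 libraries. For bHLH35 the difference was -0.85 (SE 0.26), with an unadjusted p of 0.0021 and a limma adjusted p that rounds to 1.

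Heat was also set against high light of the same length within the mutant. The test called 5547 of 18614 genes (29.8%), with 3135 higher in HS (16.8%) and 2412 lower (13%). Which direction held more genes depended on the setting: 2463 were higher and 2725 lower with libraries scaled to a common sum, 2737 and 2870 with median-of-ratios scaling, and 778 and 1059 in a fit of the HS and HL libraries alone. Of these, 1227 differed by at least 1 on the log2 scale (6.59%), 437 higher (2.35%) and 790 lower (4.24%). HL replicate 1 stood apart, with a Pearson correlation across genes of 0.960 and 0.951 with HL replicates 2 and 3, which had 0.983 with each other, and 4922 genes were called without it. Small heat shock proteins were lower in HL replicate 1 than in HL replicates 2 and 3. Their median over the Control mean was 2.41, 6.31 and 7.04 on the log2 scale in HL replicates 1, 2 and 3.

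The naming rule for HS against HL, which required that the groups did not overlap, put HSP18.2, HSP22.0 and HSP21 first among genes higher in HS. HSP18.2 (AT5G59720) had 3803, 2989 and 3650 FPKM in HS, 2.79, 201 and 198 FPKM in HL and 1.56, 1.82 and 3.64 FPKM in Control. HS over HL was 6.02 on the log2 scale (SE 1.14, limma adjusted p = 0.000541, and 0.00195 without HL replicate 1). HSP22.0 had 0.693, 119 and 162 FPKM in HL, and HSP21 had 0.853, 82.7 and 126 FPKM in HL, all below the HS values of these genes. Other genes did not separate heat from light. APX1 had 1812, 1794 and 1863 FPKM in HS, 1719, 1666 and 1889 FPKM in HL and 554, 669 and 752 FPKM in Control. HSFA2 had 26.7, 22.1 and 71.9 FPKM in HL, which overlapped its HS values of 77.5, 29.3 and 31.8 FPKM. Of the small heat shock proteins 9 were higher in HS than in HL with all libraries and 5 without HL replicate 1, and for organelle chaperonins the count was 8 of 8 either way.

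Flavonoid and light-stress genes set the treatments apart in the other direction, with 9 of 12 lower in HS than in HL and none higher, with and without HL replicate 1. Root markers were also lower in HS than in HL, in 5 of 10 cases with none higher (median log2 change -0.77), and in 7 without HL replicate 1 (median -1.13). Their medians over the Control mean were 0.28, 1.38 and 1.36 in HL replicates 1, 2 and 3, and the part of root tissue in the comparison with HL was not tested. F3H (AT3G51240), a flavonoid hydroxylase, had 9.87, 25.5 and 19.4 FPKM in HS, 135, 75.5 and 48.7 FPKM in HL and 22.5, 17.3 and 22.5 FPKM in Control. The early light-induced gene ELIP2 (AT4G14690) had 9.39, 8.55 and 3.65 FPKM in HS, 140, 89.1 and 49.2 FPKM in HL and 10.2, 26.5 and 34.9 FPKM in Control. ELIP1 was higher in HS than in Control and higher still in HL. LEA3, lower in HS than in Control, reached 247, 219 and 125 FPKM in HL. Plastid genes were lower in HS than in HL in 52 of 64 cases (50 without HL replicate 1), for example ATCG00270, which had 5.33, 6.99 and 6.53 FPKM in HS, 232, 211 and 190 FPKM in HL and 10.8, 40.9 and 40.8 FPKM in Control. Abscisic acid genes were lower in HS than in HL in 7 of 14 cases and in 8 without HL replicate 1, with RD20 (AT2G33380) at 2.12, 4.54 and 2.21 FPKM in HS and 27.1, 53.9 and 47.9 FPKM in HL.

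**Figure D5:**
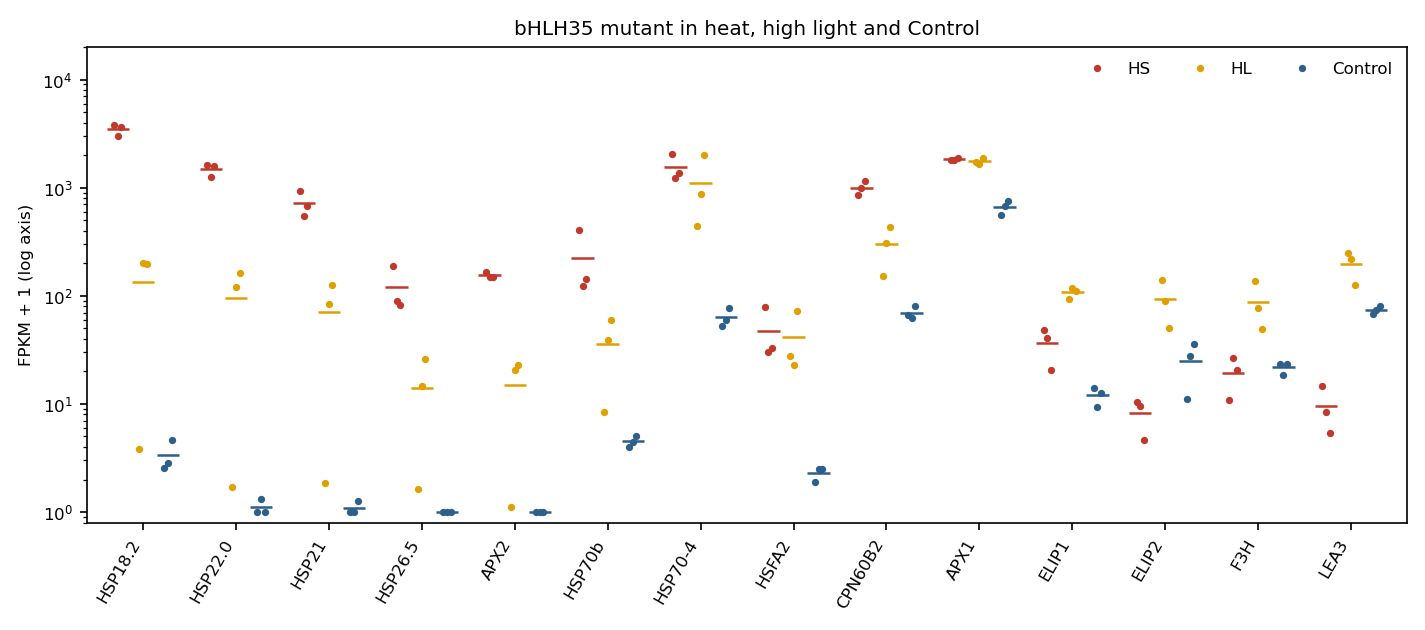
Level of 14 genes in mutant HS, HL and Control libraries, as FPKM + 1 on a log axis. Points are libraries and bars are group means; HSP18.2 is highest in HS, at 2989 to 3803 FPKM, the HS and HL values of APX1 overlap, and F3H and LEA3 are highest in HL.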

How the data were processed

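Per the labels' protocols, RNA of whole seedlings was extracted with a column kit and sequenced as paired reads. Per the submitters' processing notes, reads were trimmed with Trim Galore 0.6.4 and aligned with HISAT2 2.2.1 to TAIR10; the counting tool, its use of strand and the annotation are not given in the sources used here. The authors deposited FPKM values per gene and library. The labels assigned groups, with 3 libraries in each. FPKM was used as log2(FPKM + 1), genes with at least 1 FPKM in 3 or more of the libraries compared were kept, and limma 3.58.1 with an intensity trend (R 4.3.3) was fitted to the 24 mutant libraries, or to all 48 for the difference between genotypes, with Benjamini-Hochberg adjustment and a threshold of 0.05. The script was tested on simulated data. Depth was estimated from the steps between low FPKM values: 93.9% to 96.1% of low values were whole multiples of 1 fragment, within a tolerance of 0.1. No count test was run, because FPKM steps depend on transcript length. Fragment limits cover counting error only. Named genes were bHLH35, members of 20 lists (306 genes), the 12 called genes per direction that changed most (mean of at least 5 FPKM in the higher group, no overlap), 5 in each direction against HL, and the 3 smallest p for the difference between genotypes; genes outside it are marked in the text. Members and lists were chosen with earlier results of these data known. Coordinates and sequences are from RefSeq TAIR10.1, in which 32539 of the gene IDs were found.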

Additional observations from a re-analysis of the deposited data

How the results depend on the processing

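The 5990 genes called in HS against Control became 5957 with a pseudocount of 0.1, 5933 without a filter, 5239 with a mean of at least 5 FPKM, 5994 and 6264 under sum and median-of-ratios scaling, 5902 without the intensity trend and 5915 with the replicate number as a block. The numbers share nothing that the design states, and same-numbered HS and Control libraries deviated from their group means with correlations of -0.041, -0.123 and 0.078. The 6 libraries alone gave 3557 and a minimum log2 change of 1 gave 1453. Leaving out 1 library gave 4689 to 6267, and 55.6% were higher without HS replicate 1, against 48.4%. For HS against HL the 5547 calls became 1837 in those libraries alone, 1227 with a log2 change of at least 1, 5524 with the block and 3719 to 6378 when 1 library was left out. Higher genes made up 56.5% of calls there, 47.5% under sum scaling and 48.8% under median-of-ratios scaling. The difference between genotypes gave 0 calls under the other planned settings, with 271 to 903 unadjusted p-values under 0.05, 0 with the block, and 0 to 2 when 1 library was left out. With the number shared between genotypes as a block, added after seeing the data, 0 were called, 787 had an unadjusted p under 0.05 and the smallest adjusted p was 0.176. Same-numbered HS libraries of the mutant and Col-0 correlated at 0.497, 0.105 and 0.302, and Control libraries at -0.005, -0.044 and 0.116. For 47 of the named genes the log2 changes were recomputed under these alternatives: 647 of 655 values kept direction and call, 8, of AT4G39364 and ATCG00330, lost the call and none reversed. Other list members that lost their call without HS replicate 1 are named in the report. The causes were not tested. FPKM near 0.109 to 0.140 rests on about 3 fragments per kilobase, so folds from such values are imprecise.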

Other observations

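Several groups formed from annotation words after the values were seen held more called genes in 1 direction than the other; over all genes tested 15.7% were higher and 16.7% lower. Genes annotated as ribosomal proteins were higher in HS in 124 of 314 tested cases and lower in 6. Their median log2 change was 0.37, with a range from -1.08 to 2.23. Without HS replicate 1, 215 were higher. In HS replicate 1 their median was -0.06 over the Control mean, against 0.63 in each of the other HS libraries. In Col-0 HS replicates 1, 2 and 3 it was 0.13, 0.44 and 0.56 over the Col-0 Control mean. AT3G58660, annotated with this family, had 31.9, 45.2 and 55.1 FPKM in HS, against 13.4, 14.7 and 16.5 FPKM in Control. Proteasome genes were higher in 21 of 42 cases and lower in 2 (29 and 2 without HS replicate 1), and PBC2 (AT1G77440), a core subunit, had 59.9, 65.2 and 66.4 FPKM in HS, against 28, 32.4 and 30.5 FPKM in Control. Of 12 genes annotated as TCP-1/cpn60 chaperonins 6 were higher, and 11 without HS replicate 1, in which their median was -0.13 over the Control mean. The group overlaps the organelle chaperonin list, since it includes CPN60B2. Genes annotated as translocases were higher in 16 of 44 cases and lower in 3 (23 and 3 without HS replicate 1).

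Other groups were lower. Histone genes fell in 18 of 27 cases and none rose (15 and 1 without HS replicate 1), and AT4G40030 had 100, 150 and 138 FPKM in HS, against 335, 322 and 324 FPKM in Control; similar copies make the split between histone genes uncertain. Immune receptors of the TIR-NBS-LRR class fell in 28 of 53 cases and rose in 1, with and without HS replicate 1, and their median in the 3 HS libraries was -0.41, -0.47 and -0.44. SNC1 (AT4G16890) had 31.2, 22.4 and 22.8 FPKM in HS, against 56.3, 62.1 and 61.6 FPKM in Control. Cysteine-rich receptor kinases fell in 10 of 20 cases and rose in 1 (9 and 1 without HS replicate 1), and CRK28 (AT4G21400) had 0.410, 0.502 and 1.07 FPKM in HS, against 6.44, 8.89 and 7.29 FPKM in Control. ABC transporters of the MRP class fell in 9 of 11 cases (8 without HS replicate 1); ABCC1 (AT1G30400) had 29.4, 29.6 and 28.1 FPKM in HS, against 40.6, 51.0 and 51.6 FPKM in Control. PEN3 (AT1G59870), a transporter of penetration resistance, is an ABC transporter of the PDR class and was named after its values were seen. It had 28, 44.3 and 37.6 FPKM in HS, against 124, 140 and 120 FPKM in Control.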
